A study of Mus musculus with 54 samples.

Results

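The 10 genes described here are the 3 transforming growth factor beta (TGF-β) ligands Tgfb1, Tgfb2 and Tgfb3, the receptors Tgfbr1 and Tgfbr2, and the SMAD genes Smad2, Smad3, Smad4, Smad6 and Smad7. They were taken by name from the 54232 Ensembl genes of the count files, each name matched 1 gene identifier, and all 10 passed the filter on low counts in every comparison. The data are RNA-seq libraries of 54 mouse tissue samples from a study of Cmpd60, a benzamide that inhibits the histone deacetylases HDAC1 and HDAC2. Of these, 34 libraries came from naturally aged, single-housed male BL6 mice of about 20 months that received 22.5 mg/kg Cmpd60 or vehicle by intraperitoneal injection on each of 14 days. The heart was sampled in 5 Cmpd60-treated and 6 vehicle-treated mice, the kidney in 6 and 5, and the brain in 6 and 6. The other 20 libraries are brains of mice of 6 to 7 months, also of BL6 background, which were given the same dose for the same time. In this cohort, APPSWE-1349 mice, which carry a transgene for the 695-residue form of human amyloid precursor protein with the Swedish mutation, were given vehicle (6 libraries) or Cmpd60 (4), and their littermates, labelled AD-control, vehicle (5) or Cmpd60 (5). The vehicle of every control group was a mixture of DMSO, PEG400 and saline, and both cohorts were male.

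TGF-β is secreted in a latent complex and, once released, joins the type II receptor Tgfbr2 to the type I receptor Tgfbr1, a kinase that phosphorylates SMAD2 and SMAD3. These receptor-regulated SMADs bind the common SMAD4 and enter the nucleus, where they switch on matrix genes such as collagens and fibronectin. SMAD6 and SMAD7 lack the site that receptors phosphorylate and act as brakes, SMAD6 mostly on signals of bone morphogenetic proteins (BMPs) and SMAD7 on TGF-β and BMP signals, and both genes are themselves induced by the pathways they restrain. The pathway is known for scar formation in heart and kidney, and Smad6 for its expression in endothelium and heart valves.

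Library totals were 23584609 to 57430113 reads on genes, so that 3 counts, the limit that a count of 0 allows, were at most 0.127 CPM (read counts scaled to a common library size), the unit of all levels below. Defining markers matched the tissue labels. The summed level of 6 cardiomyocyte markers was at least 54087 CPM in every heart and at most 12.3 CPM in every kidney, and that of 6 tubule markers was at least 6982 CPM in every kidney and at most 10.1 CPM in every heart. The neuronal markers summed to at least 4349 CPM in every aged brain and to at most 85.3 CPM in every heart. For the kidneys, the treatment field of the labels gives the opposite of the titles and source names, which were followed because the headings of the study's tables give the same groups. If the field were right, the kidney groups would swap, and every kidney difference between Cmpd60 and vehicle below would change its sign. The kidney levels given for vehicle would be those of Cmpd60. Differences in effect between kidney and another tissue would change in size, without necessarily changing sign. In the younger brains, 9 of the 20 libraries had fewer than 20000 detected genes, against 24939 to 28017 in the aged brains.

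The 5′ flanks of Smad6 and Tgfb1, the inhibitory SMAD and the ligand whose hearts separated by treatment, are shown as the sequence context of these genes. Each is the stretch of 250 bases before the RefSeq transcription start in GRCm38.p6, written 5′ to 3′ along the gene, and the capitals mark GC boxes (GGGCGG on either strand), the letters bound by factors of the SP family. Entries were found for 6 of the 10 genes, and Tgfb3, Smad2, Smad4 and Smad7 had none.
Smad6, chr9:64022060-64022309, minus strand: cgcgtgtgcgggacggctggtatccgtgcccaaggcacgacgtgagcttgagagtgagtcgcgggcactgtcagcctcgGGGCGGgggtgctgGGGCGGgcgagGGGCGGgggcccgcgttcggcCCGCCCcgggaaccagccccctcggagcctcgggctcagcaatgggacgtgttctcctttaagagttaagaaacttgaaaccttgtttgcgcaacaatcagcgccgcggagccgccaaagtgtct
Tgfb1, chr7:25686752-25687001, plus strand: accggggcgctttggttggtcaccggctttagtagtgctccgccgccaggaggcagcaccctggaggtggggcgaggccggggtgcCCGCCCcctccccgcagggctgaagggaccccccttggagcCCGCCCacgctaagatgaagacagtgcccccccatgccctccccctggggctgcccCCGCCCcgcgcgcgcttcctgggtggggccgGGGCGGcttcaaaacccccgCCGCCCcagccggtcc
The Smad6 flank held 4 GC boxes and the Tgfb1 flank 5. A GC box was found in 32.7% of the 32851 flanks of the same length, at least 4 in 4.09% and at least 5 in 1.93%. The letters CAGAC of the SMAD binding element (found in 42.2% of flanks on either strand), the GC-rich form GGCGCC (9.59%) and the E-box CANNTG (66.2%) occurred in neither of these windows. Of the other genes with an entry, Tgfb2 held CAGAC at 221 and 204 bases before its start Tgfbr2 at 160 bases and Tgfbr1 at 203 bases in 1 of its 2 entries. The other entry of Tgfbr1 held GGCGCC at 233 bases and 2 GC boxes, and Smad3 also held 2 GC boxes. The flanks of Tgfb2 and Tgfbr2 held no GC box. A match is a match of letters, and binding was not measured. A link between these letters and the differences with Cmpd60 was not tested.

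Apart from Smad7, the mean levels of the members differed more between the aged tissues than between treatments. Levels between genes were compared as CPM per kb of exon, with exon lengths from the GENCODE M1 annotation, which is older than the annotation of the counts. In vehicle-treated hearts, Smad4 was the most abundant member per length, at 19.5 ± 1.72 CPM per kb (SD, n = 6), followed by Tgfbr2 at 14.5 ± 1.44, Tgfb1 at 10.9 ± 0.944 and Tgfb3 at 9.28 ± 0.649. Smad6 at 7.37 ± 1.03, Smad7 at 7.12 ± 0.654 and Smad2 at 6.95 ± 0.206 lay within their spread of each other, as did Smad3, Tgfb2 and Tgfbr1 between 5.02 and 5.58. In vehicle-treated kidneys, Tgfbr2 (17.0 ± 1.49 CPM per kb, n = 5), Smad4 (16.0 ± 1.16) and Tgfbr1 (13.7 ± 1.40) led, and Tgfb3 and Tgfb2 were last at 1.18 ± 0.226 and 0.708 ± 0.212. In vehicle-treated brains, Smad4 led with 11.7 ± 0.566 CPM per kb (n = 6) and Smad6 was last with 1.03 ± 0.175. Tgfb1 was the highest ligand per length in heart and kidney, and Tgfb3 in brain.

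The tissue order was not the same for the inhibitory pair. Between vehicle-treated mice, Smad6 was at 23.1 ± 3.22 CPM in heart (SD, n = 6), 13.1 ± 1.41 CPM in kidney (n = 5) and 3.22 ± 0.549 CPM in brain (n = 6), with no overlap between the tissues. Smad7 was at 32.2 ± 2.96, 32.8 ± 3.45 and 33.0 ± 3.51 CPM, which do not differ beyond their spread. Among the ligands, Tgfb2 and Tgfb3 were lowest in kidney, at 3.43 ± 1.02 and 3.999 ± 0.764 CPM, and Tgfb1 was lowest in brain, at 6.02 ± 0.998 CPM. Tgfbr1 was at 89.3 ± 9.16 CPM in kidney, against 32.8 ± 4.32 CPM in heart and 26.4 ± 2.60 CPM in brain. These levels set very different tissues on 1 scale of normalised library sizes. The fits of Cmpd60 against vehicle within each aged tissue were normalised separately and do not rest on it. The CPM values, their ranges and the permutation tests below use this scale. The fit of differences between tissues was normalised over the same 34 libraries.

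**Figure D1:**
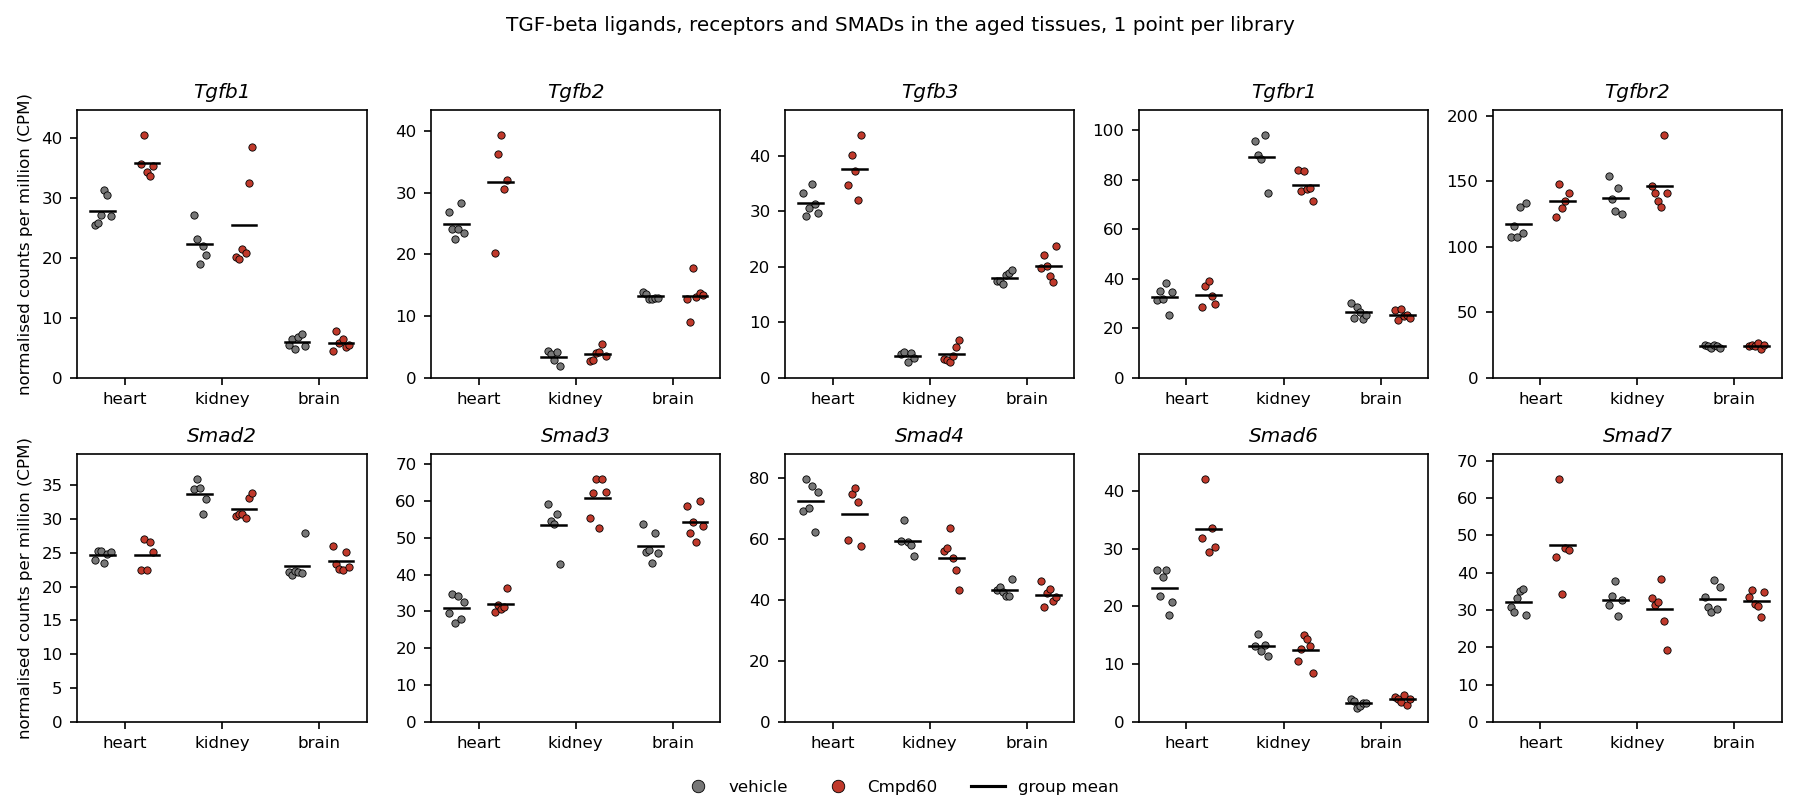
CPM (vertical axis of each panel, from 0) of the 10 genes in each aged heart, kidney and brain library; points are libraries, grey for vehicle and red for Cmpd60, and bars are group means. Smad6 and Tgfb1 are the panels in which every Cmpd60-treated heart lies above every vehicle-treated heart. The share of all genes with such a separation was not counted. In the kidney panels of Tgfb1 and Tgfb3 the Cmpd60-treated replicates 54 and 55 lie above the other kidney libraries.

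In the aged heart, Cmpd60 was compared with vehicle to see how the RNA levels of these genes differ in this organ. Protein, SMAD phosphorylation and the activity of the pathway were not measured in these libraries. Both inhibitory SMADs and all ligands were higher on average in Cmpd60-treated hearts, Tgfbr1, Smad2 and Smad3 differed little, and Smad6 alone passed the adjusted threshold of 0.05 in edgeR's quasi-likelihood test over all genes. That is 1 of 10 members called, and called higher, where 1.18% of the 19452 genes tested were called in either direction and 0.756% were called higher. At an unadjusted p-value below 0.05, 6 of the 10 were higher and none was lower, where 13.5% of all genes tested passed and 7.28% passed and were higher. The median log2 fold change of the members was 0.22, against -0.0014 over all genes tested. The members were chosen with earlier results of these data known, so these shares are not a test of the list.

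Smad6, the brake on BMP signalling, was measured at 31.8, 42.1, 29.4, 33.5 and 30.3 CPM in the Cmpd60-treated hearts and at 18.5 to 26.3 CPM, with a median of 23.4 CPM, in the 6 vehicle-treated hearts. All 5 treated hearts lay above all vehicle hearts, and replicate 69 was the highest. The share of all genes whose groups separate in this way was not counted in any tissue. The log2 fold change was 0.52 (SE 0.11, 95% confidence interval 0.28 to 0.76), a rise of 43.1%, with an adjusted p-value of 0.039. The exact two-sided permutation test gave p = 0.00216 for the difference of mean log2 CPM, the smallest value that 462 arrangements can give. In heart the same test, unadjusted, gave 0.00433 for Tgfb1, 0.00649 for Smad7, 0.0152 for Tgfb3, 0.0325 for Tgfbr2 and 0.0909 for Tgfb2. The remaining members had 0.342 (Smad4) to 0.974 (Smad2). Its smallest values elsewhere were 0.0368 for Tgfbr1 in kidney and 0.0195 for Smad3 in brain. The call rests on the number of hearts as well as on the size of the difference. When each heart was left out in turn, the log2 fold change stayed between 0.42 and 0.57. The adjusted p-value was then between 0.0284 and 0.103, above 0.05 in 7 of 11 cases. Those were the cases without Cmpd60-treated replicate 69 (0.103), 71 (0.0529) or 72 (0.0752) and without vehicle replicate 63 (0.0844), 64 (0.057), 66 (0.0615) or 67 (0.0836).

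Smad7, which acts on the TGF-β receptors, showed a fold change of about the same size but more spread. Its levels were 44.3, 65.2, 34.2, 46.7 and 46.2 CPM in the treated hearts, against 28.8 to 35.7 CPM with a median of 32.01 CPM in the vehicle hearts. Replicate 70 lay within the vehicle range, the other 4 above it. The log2 fold change was 0.54 (SE 0.13, interval 0.27 to 0.81), and the adjusted p-value of 0.0544 missed the threshold. It was 0.00357 with DESeq2, 0.0637 with limma-voom, and 0.0162 in edgeR without replicate 70. No other omission of a heart brought it below 0.05.

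Tgfb1, the ligand most studied in fibrosis, was at 35.6, 40.5, 34.3, 33.7 and 35.2 CPM in the treated hearts and at 25.5 to 31.3 CPM, median 27.1 CPM, in the vehicle hearts. The groups did not overlap. Its log2 fold change of 0.35 (SE 0.08, interval 0.18 to 0.52) had an adjusted p-value of 0.0501 in edgeR, 0.0457 in limma-voom and 0.0046 in DESeq2, and lay from 0.30 to 0.39 when each heart was left out. Tgfb2 was at 20.2, 36.2, 39.4, 30.7 and 32.03 CPM, against 22.4 to 28.3 CPM, so that replicate 68 lay below all vehicle hearts and the other 4 above them. Its log2 fold change was 0.33 (interval 0.05 to 0.61) with an adjusted p-value of 0.275, and 0.45 with an adjusted p-value of 0.0391 without replicate 68. Tgfb3 was at 34.7, 40.0, 37.1, 32.1 and 43.8 CPM, against 29.2 to 34.8 CPM, and 3 of the 5 treated hearts lay above the vehicle range. Its log2 fold change was 0.24 (interval 0.05 to 0.43) with an adjusted p-value of 0.226.

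Of the receptors, Tgfbr2, which binds the ligand, had a log2 fold change of 0.19 (interval 0.04 to 0.34, adjusted p-value 0.23), with 122 to 148 CPM in treated and 107 to 134 CPM in vehicle hearts. Its partner Tgfbr1 had a log2 fold change of 0.02 (interval -0.19 to 0.22), with 28.8 to 39.1 CPM in treated and 25.5 to 38.2 CPM in vehicle hearts. The receptor-regulated Smad2 and Smad3 had log2 fold changes of -0.01 (interval -0.18 to 0.15) and 0.03 (interval -0.14 to 0.21). Smad4, which all branches share, was at 57.8 to 76.7 CPM in treated and 62.4 to 79.8 CPM in vehicle hearts, a log2 fold change of -0.10 (interval -0.27 to 0.07). For Tgfbr1, Smad2, Smad3 and Smad4 the intervals together reach from -0.27 to 0.22 on the log2 scale, which leaves room for a small change but not for a rise of the size fitted for Smad6.

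**Figure D2:**
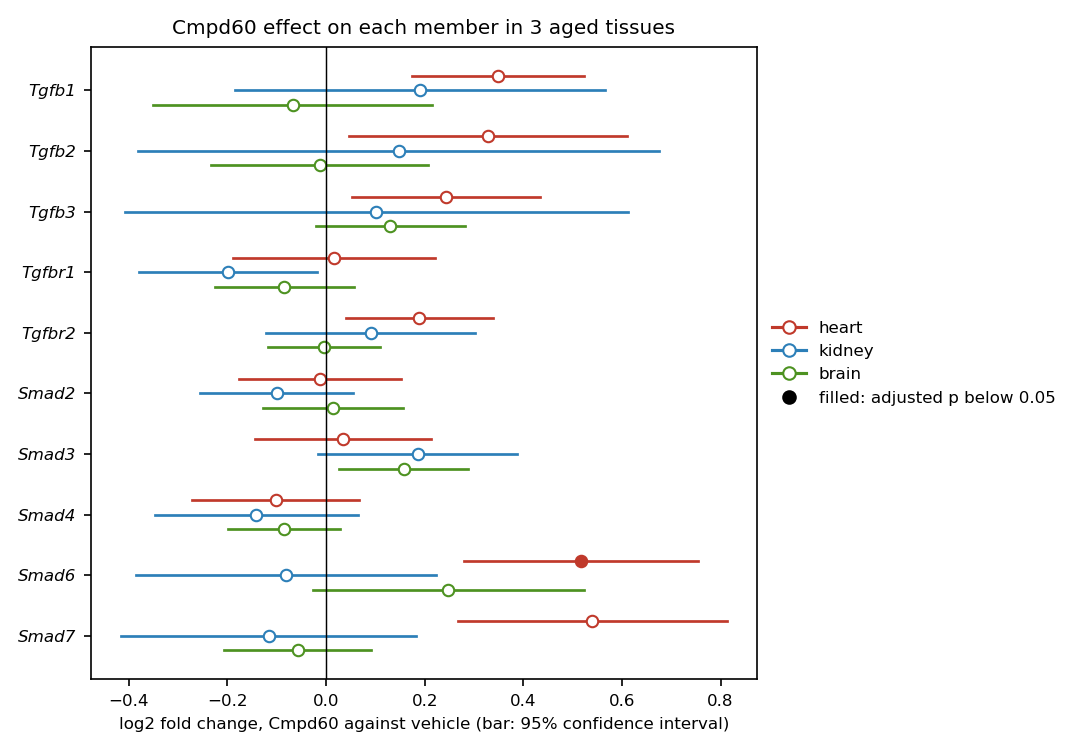
Log2 fold change of Cmpd60 against vehicle (horizontal axis) for each of the 10 genes in aged heart, kidney and brain, with 95% confidence intervals from edgeR as bars; a filled point has an adjusted p-value below 0.05. The filled point is Smad6 in heart at 0.52, and the heart intervals of Smad7 (0.27 to 0.81) and Tgfb1 (0.18 to 0.52) also lie above 0.

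Markers of other cell types in the heart libraries stand here as measured values, and some of these lists differed by treatment while others did not. The sum of 8 endothelial markers was 1276 to 1644 CPM in the treated and 1177 to 1279 CPM in the vehicle hearts. All 8 had log2 fold changes above 0, with a median of 0.16, where 49.6% of all genes tested did. At an unadjusted p-value below 0.05, 3 of them passed, where 7.28% of all genes passed and were higher, and none was called. Divided by the endothelial sum, Smad6 was higher in treated hearts by 0.35 on the log2 scale, with 4 of 5 above all vehicle hearts. Smad7 was higher by 0.35 with 4 of 5 above, and Tgfb1 by 0.18 with 2 of 5 above. The differences of the other 3 members with an unadjusted p-value below 0.05 were smaller on this scale, at 0.14 for Tgfb2 with 2 of 5 above, 0.07 for Tgfb3 with 1 of 5 above, and 0.02 for Tgfbr2 with 0 of 5 above. The sum of 6 macrophage markers was 161 to 184 CPM in treated and 126 to 208 CPM in vehicle hearts. Fibroblast markers summed to 459 to 512 CPM in treated and 452 to 552 CPM in vehicle hearts. Those of smooth muscle and pericytes summed to 1211 to 1473 CPM and 1233 to 1397 CPM. The sum of 6 lymphocyte markers, 1.99 to 4.06 CPM in treated and 4.23 to 7.56 CPM in vehicle hearts, did not overlap between the groups. All 6 had log2 fold changes below 0, but at so low a sum each marker rests on few counts. Of 6 markers of valve and epicardium, 3 were higher and 3 lower on average, and 1 was called higher, where 0.756% of all genes were. Their sum was 16.3 to 35.0 CPM in treated and 7.65 to 47.2 CPM in vehicle hearts. The part of cell composition in the members' differences was not tested, and the ratios to marker RNA are not such a test. In whole tissue, fewer cells of a type and less RNA in each cell cannot be told apart.

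**Figure D3:**
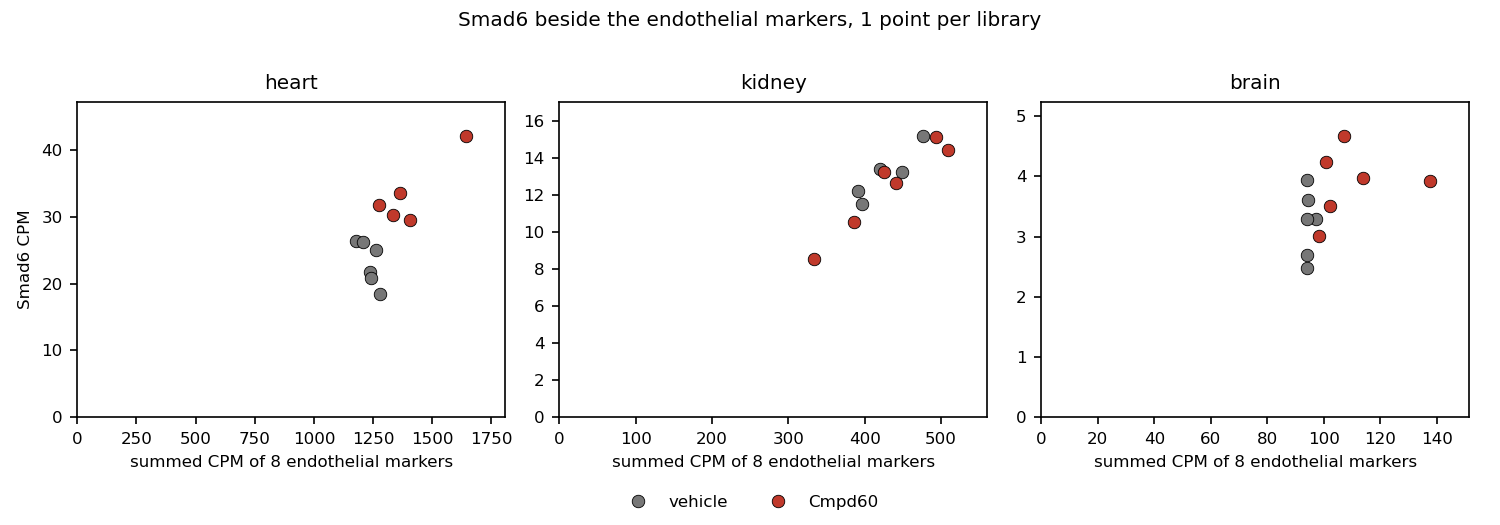
Smad6 CPM (vertical axis) against the summed CPM of 8 endothelial markers (horizontal axis) in each library of the aged heart, kidney and brain, grey for vehicle and red for Cmpd60, both axes from 0. In the heart the 5 Cmpd60-treated libraries, at 29.4 to 42.1 CPM of Smad6, lie above all vehicle libraries, and 4 of them also lie above all vehicle libraries in the marker sum. In the kidney the library lowest in both, at 8.52 CPM of Smad6 and 334 CPM of markers, is Cmpd60-treated replicate 55.

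In the aged kidney no member was called between Cmpd60 and vehicle, with edgeR, limma-voom or DESeq2, where 0.300% of the 20698 genes tested were called in edgeR. At an unadjusted p-value below 0.05, 1 of the 10 passed, near the 11.3% of all genes, and it was Tgfbr1, which was lower. Tgfbr1 was at 71.5 to 83.9 CPM, with a median of 76.3 CPM, in the 6 Cmpd60-treated kidneys, against 95.6, 89.9, 88.3, 98.2 and 74.6 CPM in the vehicle kidneys. The groups overlapped through vehicle replicate 49, and the other 4 vehicle kidneys lay above all treated kidneys. Its log2 fold change was -0.20 (interval -0.38 to -0.02) with an adjusted p-value of 0.394. Smad3, the receptor-regulated SMAD most tied to matrix genes, was at 52.7 to 65.996 CPM with a median of 62.3 CPM in treated and 42.9 to 59.1 CPM in vehicle kidneys, with 4 of 6 treated kidneys above the vehicle range and a log2 fold change of 0.19 (interval -0.02 to 0.39, adjusted p-value 0.48).

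For the inhibitory pair, the fitted changes in kidney were below 0, with adjusted p-values of 0.876 for Smad6 and 0.801 for Smad7. Smad6 was at 8.52 to 15.1 CPM with a median of 12.9 CPM in treated and 11.5 to 15.2 CPM in vehicle kidneys (log2 fold change -0.08, interval -0.38 to 0.22). Smad7 was at 19.3 to 38.3 CPM with a median of 31.8 CPM in treated and 28.3 to 37.7 CPM in vehicle kidneys (-0.12, interval -0.42 to 0.18). Relative to the endothelial sum, which was 334 to 510 CPM in treated and 391 to 477 CPM in vehicle kidneys, Smad6 was lower in treated kidneys by 0.11 on the log2 scale (a difference of -0.11). The lowest treated value of both was in replicate 55. This library and replicate 54 also held the highest Tgfb1 levels, 38.5 and 32.5 CPM, where the other 4 treated kidneys were at 19.8 to 21.4 CPM and the vehicle kidneys at 18.9 to 27.2 CPM. Tgfb3 followed the same order, at 6.81 and 5.58 CPM against 2.79 to 4.72 CPM in the other 9 kidneys. Replicate 55 had the lowest sum of tubule markers, 6982 CPM against 11569 to 14929 CPM in the other kidneys, and replicates 54 and 55 had the highest sums of macrophage markers, 275 and 212 CPM against 122 to 187 CPM. The part of these differences in the kidney values of Tgfb1, Tgfb3, Smad6 and Smad7 was not tested. Without replicate 55 the log2 fold change of Smad6 was 0.01 and that of Tgfb3 was -0.07, and neither passed.

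In the aged brain no member was called either, with any of the 3 tools, where 0.0205% of the 24438 genes tested were called in edgeR. At an unadjusted p-value below 0.05, 1 of 10 passed, where 13.8% of all genes did. That gene was Smad3, at 48.9 to 60.0 CPM with a median of 53.7 CPM in treated and 43.2 to 53.6 CPM with a median of 46.4 CPM in vehicle brains. The groups overlapped, and 3 of 6 treated brains lay above the vehicle range. Its log2 fold change was 0.16 (interval 0.03 to 0.29, adjusted p-value 0.282). Smad6, at the low level it has in brain, was at 3.00 to 4.68 CPM with a median of 3.95 CPM in treated and 2.48 to 3.95 CPM in vehicle brains, a log2 fold change of 0.25 (interval -0.03 to 0.52, adjusted p-value 0.412). The sum of the endothelial markers was 98.2 to 138 CPM in treated and 93.9 to 97.4 CPM in vehicle brains, without overlap, and relative to it Smad6 differed by 0.07 on the log2 scale. Smad7 was at 28.1 to 35.3 CPM in treated and 29.3 to 38.1 CPM in vehicle brains, with a log2 fold change of -0.06 (interval -0.21 to 0.09). The ligands, the receptors, Smad2 and Smad4 had log2 fold changes from -0.09 to 0.13.

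The difference in effect between tissues was tested itself, in 1 fit of the 34 aged libraries over 27105 genes. None of the 10 members passed the adjusted threshold for heart against kidney, where 0.350% of all genes were called, for heart against brain, where 0.0517% were called, or for kidney against brain, where 0.0885% were called. At an unadjusted p-value below 0.05 the members that passed were Smad6 and Smad7 for heart against kidney, where 11.7% of all genes did, Smad7 for heart against brain (9.08%) and none in either direction for kidney against brain, where 2710 of the 27105 genes passed and 3.81% passed with the larger effect in kidney. The Cmpd60 effect on Smad7 was larger in heart than in kidney by 0.67 (interval 0.30 to 1.04, adjusted p-value 0.0902, and 0.0323 with DESeq2) and larger than in brain by 0.58 (interval 0.22 to 0.94, adjusted p-value 0.273). For Smad6 the difference was 0.61 between heart and kidney (interval 0.23 to 0.99, adjusted p-value 0.159) and 0.25 between heart and brain (interval -0.14 to 0.64, adjusted p-value 0.771). For Tgfb1 the effect in heart exceeded that in brain by 0.40 (interval -0.02 to 0.83) and that in kidney by 0.17 (interval -0.25 to 0.59). The labels do not give which heart, kidney and brain came from 1 mouse, so the libraries were fitted as separate samples.

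Within each library, Smad6 and Smad7 were set against the mean of Smad2, Smad3 and Smad4 on the log2 CPM scale, which cancels the library size. Exon length was not taken into account, so these values do not give the order of the genes per length. The differences between treatments are not affected by this. In the hearts, Smad6 lay below the other SMADs by 0.73 ± 0.22 in the vehicle group (written as -0.73, SD, n = 6) and at -0.18 ± 0.17 in the Cmpd60 group (n = 5), with all 5 treated hearts above all vehicle hearts. The difference between the group means was 0.54. Smad7 was at -0.24 ± 0.20 in vehicle and 0.30 ± 0.30 in treated hearts, a difference of 0.54, with 4 of 5 treated hearts above the vehicle range. In kidney, both moved little, with differences of -0.08 for Smad6 and -0.12 for Smad7, and in brain by 0.21 for Smad6 and -0.08 for Smad7. The group ranges overlapped for both genes in kidney and brain. These differences within libraries were not tested again, since they rest on the same counts as the tests of each gene.

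**Figure D4:**
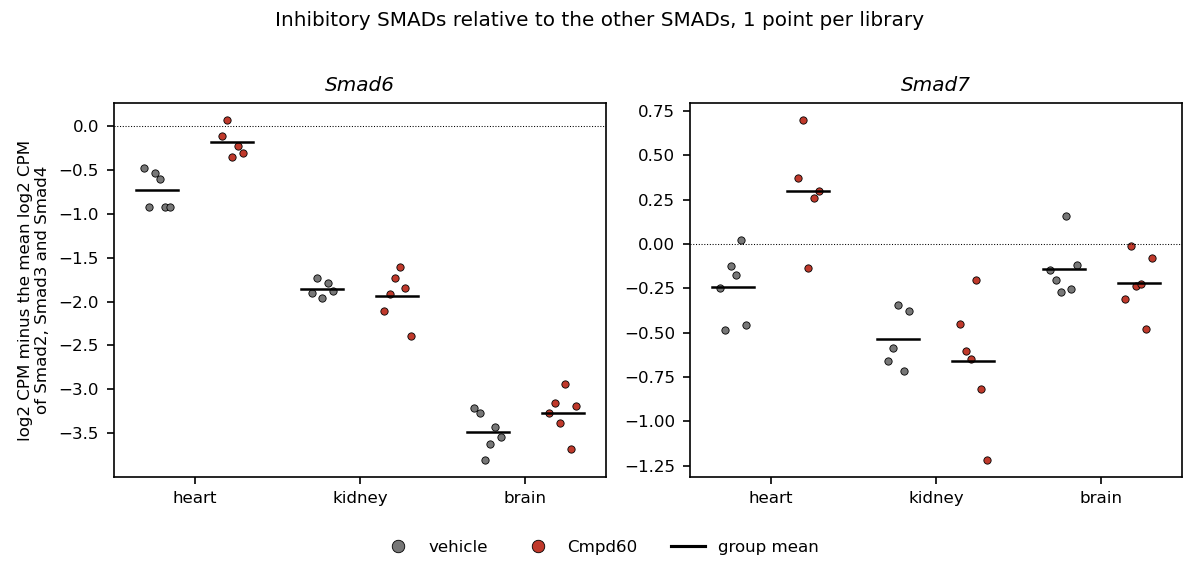
Log2 CPM of Smad6 (left) and Smad7 (right) minus the mean log2 CPM of Smad2, Smad3 and Smad4 (vertical axis) in each aged library, by tissue; grey points are vehicle, red points Cmpd60 and bars group means. In heart the Smad6 values lie between -0.35 and 0.07 with Cmpd60 and between -0.92 and -0.48 with vehicle, and in kidney and brain the groups overlap.

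The other genes of the pathway were read from a list of 84 genes in 8 roles, which was also chosen with earlier results of these data known. In the heart 2 of the 84 rose and none fell at an adjusted p-value below 0.05, and 17 were higher and 3 lower at an unadjusted p-value below 0.05. Of all genes tested in heart, 0.756% were called higher, 13.5% passed the unadjusted threshold in either direction and 7.28% passed it and were higher. The list's median log2 fold change was 0.10. The 2 that rose were Id1, a BMP-induced inhibitor of differentiation factors, at 47.2 ± 8.18 CPM in treated and 31.5 ± 5.96 CPM in vehicle hearts (log2 fold change 0.57, SE 0.13, adjusted p-value 0.0479), and Nrros, which anchors latent TGF-β1 on macrophages and microglia, at 11.2 ± 0.148 and 7.72 ± 1.29 CPM (0.53, SE 0.11, adjusted p-value 0.039). All 5 treated hearts lay above the vehicle range for Nrros and 4 of 5 for Id1. Neither call survived every omission of a heart, since the count of called pathway genes fell to 0 without Cmpd60-treated replicate 69 or 72 or vehicle replicate 63, 66 or 67.

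By role, the 16 genes known to respond to TGF-β had 15 log2 fold changes above 0 in the heart, with a median of 0.20 and none called, where 49.6% of all genes tested had log2 fold changes above 0. Fn1, Col1a1, Id3, Id4, Acvrl1 and Eng are given here as examples chosen after their values were seen. Fn1, the matrix protein fibronectin, was at 145.2 ± 23.5 CPM in treated and 109 ± 21.2 CPM in vehicle hearts (log2 fold change 0.39, adjusted p-value 0.158), Timp1, an inhibitor of matrix proteases with the third smallest p-value of the list, at 7.47 ± 2.55 and 4.10 ± 0.957 CPM (0.84, adjusted p-value 0.0658), and the collagen gene Col1a1 had a log2 fold change of 0.29 (adjusted p-value 0.257). Of the 6 BMP-responsive genes, 5 were higher on average and 1 was called. Id3 had a log2 fold change of 0.30 (adjusted p-value 0.245), and Id4, at 1.27 and 2.30 CPM, one of -0.86 (adjusted p-value 0.203). Among the 12 other receptors, 5 were higher at an unadjusted p-value below 0.05, against the 7.28% of all genes, and none was called. They included Acvrl1 and Eng, the receptor and co-receptor of endothelial BMP9 signalling, with log2 fold changes of 0.34 and 0.31 (adjusted p-values 0.0931 and 0.113). The 7 secreted antagonists, the 3 BMP SMADs and the 15 SMAD regulators had medians of -0.05, -0.09 and 0.09 and no call.

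In the kidney 82 and in the brain 83 of the 84 genes could be tested and none passed, and 12 were higher and 4 lower in kidney and 10 higher and 6 lower in brain at an unadjusted p-value below 0.05. Of all genes, 11.3% passed that threshold in kidney, with 5.71% passing and higher, and 13.8% in brain, with 7.32% passing and higher. The 3 with the smallest p-values in kidney, none of which passed, were Pmepa1, a TGF-β-induced brake on the receptor complex (log2 fold change 0.34, adjusted p-value 0.146), Id1 (0.62, adjusted p-value 0.165, with all 6 treated kidneys above the vehicle range) and the activin antagonist Fstl3 (0.50, adjusted p-value 0.227). In brain they were Acvrl1 (0.38, adjusted p-value 0.102, all 6 treated brains above the vehicle range), the BMP antagonist Chrd (0.34, adjusted p-value 0.125) and Bmp5 (-0.47, adjusted p-value 0.197). DESeq2 called 2 genes of the list in kidney and 2 in brain, and 9 in heart. Over all genes it called 429 of 20698 in kidney, 401 of 24438 in brain and 746 of 19452 in heart.

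**Figure D5:**
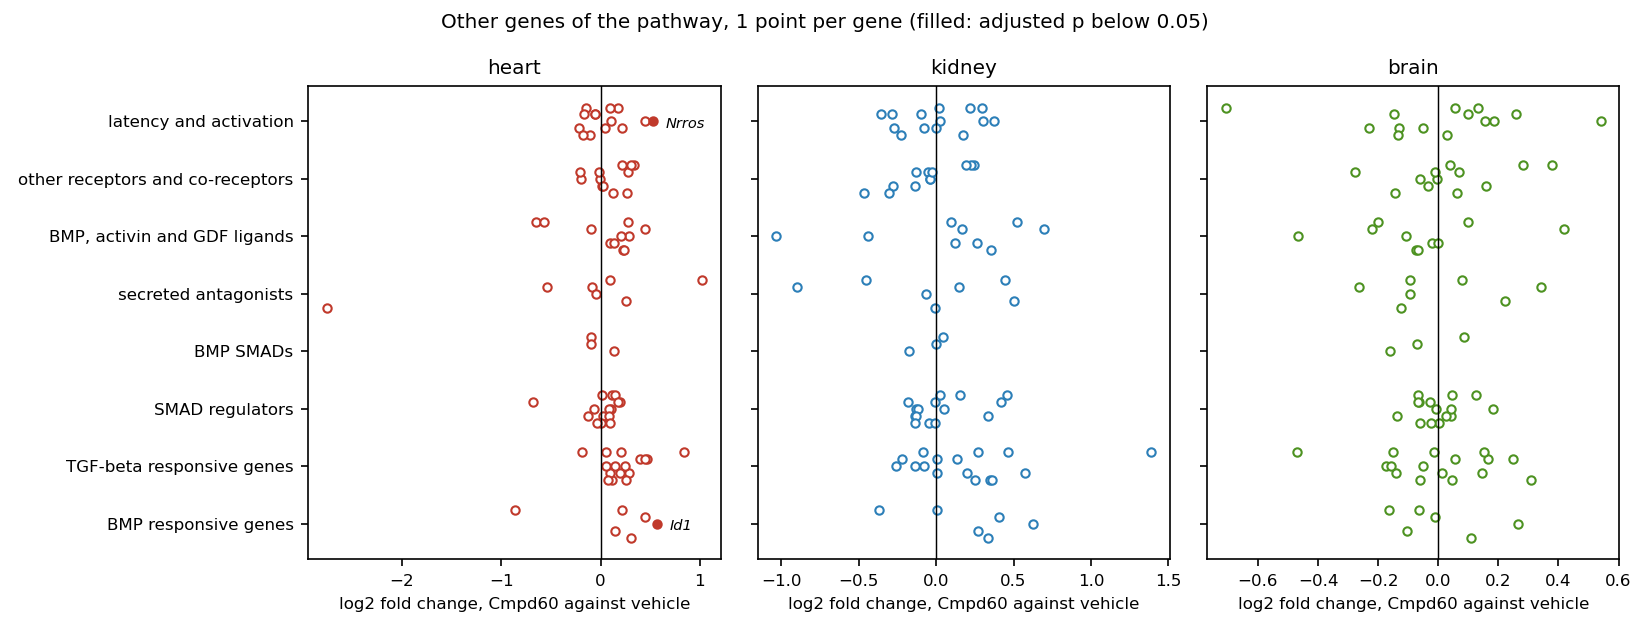
Log2 fold change of Cmpd60 against vehicle (horizontal axis, a scale of its own in each panel) of the 84 other pathway genes by role, in aged heart, kidney and brain, 1 point per tested gene; filled points have an adjusted p-value below 0.05. Id1 and Nrros are the filled points in heart, and the point at -2.76 is Grem1, whose mean was 0.0212 CPM in treated and 0.187 CPM in vehicle hearts.

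The genes most like a member across libraries were sought in the 34 aged libraries, after the mean of each tissue and treatment was taken off, among 11683 genes with at least 1 CPM on average in every tissue. For Smad6 these were Mphosph9, Polr3e, Itgb8, Notch1 and Ficd, with Pearson r from 0.638 to 0.679, for Smad7 Fads2, Grpel2, Furin, Harbi1 and Erf with r from 0.698 to 0.765, and for Tgfb1 Hspb1, Cygb, Anxa2, Serpinh1 and Anxa3 with r from 0.771 to 0.827. Among the members, Smad6 and Smad7 had r = 0.489 with each other, Tgfb1 and Tgfb3 r = 0.70, and Tgfb1 and Smad6 r = -0.07. These values describe shared variation of libraries, including that of a few libraries such as kidney replicates 54 and 55, and carry no test.

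In the younger brains, no member was called for Cmpd60 against vehicle in APPSWE-1349 mice or in littermates, or for APPSWE-1349 against littermates in vehicle-treated mice, by edgeR, limma-voom or DESeq2, where 0%, 0% and 0.00859% of the 23273 genes tested were called in edgeR. At an unadjusted p-value below 0.05 the members that passed were 0 of 10 (8.78% of all genes), 1 of 10 (3.76%) and 0 of 10 (8.35%), the 1 being Smad3 in littermates. Smad6 spread widely here. It was at 2.72, 3.34, 2.41, 4.85 and 3.58 CPM in vehicle-treated and 10.4, 2.25, 2.81, 2.35 and 2.72 CPM in Cmpd60-treated littermates, at 0 to 5.11 CPM with a median of 1.66 CPM in vehicle-treated APPSWE-1349 mice and at 2.62, 2.25, 3.22 and 2.61 CPM in those given Cmpd60. The 0 was replicate 140 and the 10.4 CPM replicate 152, both among the libraries with fewer than 20000 detected genes. Smad7 was at 22.5 to 55.8 CPM in the 4 groups. One vehicle-treated APPSWE-1349 library is given as vehicle by its labels and as Cmpd60 by the study's tables, and no member was called with it in either group or left out.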

How the data were processed

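RNA of homogenised heart, kidney and brain tissue was poly(A)-selected and sequenced with a directional kit. The methods of the study do not say which part of each organ was taken. Per the labels and the processing notes of the submitters, reads were checked with FastQC, trimmed with Trimmomatic (0.32), aligned with HISAT2 (2.1.0) and assigned to Ensembl genes with HTSeq (0.11.0). The deposited values are raw counts per gene and library, for which the methods of the study give default HTSeq settings and counting by read direction. The 5 summary lines of each file (15.4 to 22.1% of its total) were left out.

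Counts were normalised by TMM in edgeR (4.0.16, R 4.3.3). A gene entered a fit when 3 or more of its libraries held over 2 counts, and was fitted by the quasi-likelihood method, separately for each aged tissue, over the 34 aged libraries for differences between tissues, and over the 20 libraries of the APPSWE-1349 cohort. P-values were adjusted over all genes by Benjamini-Hochberg. CPM values in the text use 1 TMM scaling over the 34 aged libraries, or over the 20 of the younger cohort, and log2 CPM has a prior count of 2. Single values were also compared by exact two-sided permutation tests of mean log2 CPM. The scripts were tested on simulated data. Alternatives were limma-voom (3.58.1), DESeq2 (1.42.0), edgeR with the size factors of DESeq2, every gene kept, a minimum of 10 counts, thinning to the smallest library, and leaving out each library.

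Replicates are separate libraries that the labels number individually, and p-values measure the spread between them. No pair of libraries within a group agreed within sampling noise. The growth text of the labels gives the younger cohort the age of the aged mice, and the series description was followed. Members and gene lists were chosen with earlier results of these data known. Named pathway genes are, per aged tissue, those with an adjusted p-value below 0.05 or, where fewer than 3 passed, the 3 with the smallest p-values. Gene names came from a RefSeq-based table, which named 32651 of the identifiers.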

Additional observations from a re-analysis of the deposited data

Results flagged for a closer look

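Among 100 combinations of a member and a group of 4 to 10 libraries, 12 had a highest or lowest library far from the rest by Dixon's criterion, where chance gives about 1 in 20. In the aged mice, vehicle brain replicate 32 held 27.87 CPM of Smad2, with the nearest library at 22.27 CPM, and Cmpd60-treated kidney replicate 54 held 185.6 CPM of Tgfbr2, nearest 146.6 CPM.

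The other 10 were in the APPSWE-1349 cohort. Cmpd60-treated littermate replicate 152 was highest in Smad3 (99.86 CPM, nearest 68.04) and Smad6 (10.39 CPM, nearest 2.808) and lowest in Tgfb3 (6.012 CPM, nearest 17.75). One vehicle-treated littermate was lowest in Smad3 (44.34 CPM, nearest 57.91) and highest in Tgfb2 (36.02 CPM, nearest 20.58). Vehicle-treated APPSWE-1349 replicate 140 was highest in Tgfb3 (44.61 CPM, nearest 25.41) and lowest in Tgfbr1 (12.49 CPM, nearest 22.82) and Tgfbr2 (13.26 CPM, nearest 26.86). Cmpd60-treated APPSWE-1349 replicate 141 was lowest in Tgfbr2 (14.4 CPM, nearest 27.5), and Cmpd60-treated littermate replicate 157 was highest in Tgfb1 (8.142 CPM, nearest 6.228). Replicates 140, 141 and 152 and this vehicle-treated littermate had fewer than 20000 detected genes, and the part of this in their values was not tested.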

How the results depend on the processing

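Of the 10 members, edgeR called 1 in heart. The count was 2 with limma-voom, 3 with DESeq2, 3 without a filter, 2 with at least 10 counts, and 0 to 2 when each heart was left out. Smad6 was called under all 6 alternatives of tool, scaling, filter and depth (adjusted p-value up to 0.0395), Tgfb1 under 4 of them (0.0046 to 0.0738) and Smad7 under 2 (0.00357 to 0.0637). With a heart left out, Tgfb1 was called once (without vehicle replicate 66, adjusted p-value 0.0413) and Smad7 once (without Cmpd60-treated replicate 70). Tgfb2 was also called without Cmpd60-treated replicate 68. No member was called in kidney or brain under any alternative. For heart against kidney DESeq2 called 1 member, where it called 515 of all 27105 genes, and leaving out a library gave 0 to 1 member. Pathway genes called in heart were 9 with DESeq2 and 1 after thinning, against 2, and 0 to 2 with a heart left out. In kidney they were 2 with DESeq2, and in brain 2 with DESeq2, 1 without a filter and 0 to 2 with a brain left out. Over all genes, the 229 calls in heart became 746 with DESeq2 and 36 to 247 with a heart left out, the 62 in kidney 429 with DESeq2, 94 without a filter and 20 to 131 with a kidney left out, and the 5 in brain 2 with limma-voom, 401 with DESeq2, 102 without a filter and 1 to 372 with a brain left out, the 372 being without vehicle replicate 29. The cause was not tested.

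Log2 fold changes near 0 changed sign when single libraries were left out, and none of these values was called. On the log2 scale they ranged in heart from -0.03759 to 0.06429 for Tgfbr1, from -0.04617 to 0.02881 for Smad2 and from -0.02259 to 0.0654 for Smad3. In kidney they ranged from -0.01215 to 0.255 for Tgfb2, from -0.07004 to 0.1978 for Tgfb3 and from -0.1461 to 0.009849 for Smad6. In brain they ranged from -0.1694 to 0.001679 for Tgfb1, from -0.1132 to 0.06981 for Tgfb2, from -0.02937 to 0.02067 for Tgfbr2 and from -0.01371 to 0.07465 for Smad2, and after thinning Tgfb2 was at 0.03039 and Tgfbr2 at 0.002539. For Smad7, kidney against brain ranged from -0.165 to 0.0134. Without the libraries under 20000 detected genes, an alternative chosen after seeing the data, no member was called in the younger brains. No paired analysis was possible because every library has its own number.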
